A study of Mus musculus with 6 samples.

Results

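The ULK and VPS34 complexes are the protein assemblies that start autophagy, and their transcripts were followed here through 10 genes. The genes were chosen by name for their place in these complexes, and all 10 were measured, out of 12393 genes on the arrays. They were read by 18 of the 20380 probe sets that name a single gene. Expression was measured in wild type mouse embryonic fibroblasts (MEFs), connective tissue cells grown from mouse embryos. Cells were starved for 6 h before RNA was extracted for 3 arrays, and control cells in normal medium gave RNA for another 3. Neither the nutrients withdrawn nor the age or strain of the embryos is stated in the labels. Titles number the arrays as biological replicates but do not tell whether separate cultures were used. The p-values rest on the spread among these arrays alone, and that spread may be technical.

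In fed cells the kinase mTORC1 holds back the ULK complex, which consists of the kinase ULK1 or its paralogue ULK2, the adaptor ATG13, the large scaffold FIP200 (encoded by Rb1cc1) and ATG101. When nutrients run short this restraint is lifted, and the ULK complex phosphorylates the VPS34 complex. VPS34 (Pik3c3) is a lipid kinase that makes phosphatidylinositol 3-phosphate (PI3P), held in a core with its regulatory subunit VPS15 (Pik3r4) and Beclin 1 (Becn1). ATG14 directs this core to sites where autophagosomes form, whereas UVRAG takes the place of ATG14 in a complex that acts on endosomes and on later steps. AMBRA1 binds Beclin 1 and also promotes ubiquitination of ULK1. These steps act largely on proteins, which the arrays did not measure.

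RefSeq promoter windows on GRCm38.p6 were available for 7 of the members, and 5 are printed: the paralogous kinases Ulk1 and Ulk2, the autophagy-specific subunit Atg14, whose window held a motif match, and Atg13 and Ambra1, which lie on the same chromosome. Each run holds the 250 bases before the annotated start of the gene, 5′ to 3′ on the strand of the gene. Capitals mark matches to the motifs listed after the sequences. The windows are chr5:110810082-110810331 (minus strand) for Ulk1, chr11:61855093-61855342 (minus strand) for Ulk2, chr14:47568435-47568684 (minus strand) for Atg14, chr2:91710593-91710842 (minus strand) for Atg13 and chr2:91729888-91730137 (plus strand) for Ambra1.
Ulk1: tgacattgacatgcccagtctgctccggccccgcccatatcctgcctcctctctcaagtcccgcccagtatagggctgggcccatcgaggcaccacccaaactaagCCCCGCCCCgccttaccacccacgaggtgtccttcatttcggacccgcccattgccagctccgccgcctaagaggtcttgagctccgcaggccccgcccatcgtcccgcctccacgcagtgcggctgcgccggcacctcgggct
Ulk2: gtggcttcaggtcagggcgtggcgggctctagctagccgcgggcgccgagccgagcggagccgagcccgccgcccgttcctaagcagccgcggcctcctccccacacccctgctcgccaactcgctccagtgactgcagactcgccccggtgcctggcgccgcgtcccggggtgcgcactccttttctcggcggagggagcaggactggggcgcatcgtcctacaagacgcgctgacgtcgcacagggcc
Atg14: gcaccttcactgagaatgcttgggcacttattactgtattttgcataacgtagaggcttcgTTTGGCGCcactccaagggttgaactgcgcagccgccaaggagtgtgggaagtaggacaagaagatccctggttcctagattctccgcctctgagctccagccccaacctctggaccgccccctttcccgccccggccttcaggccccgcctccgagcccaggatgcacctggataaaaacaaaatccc
Atg13: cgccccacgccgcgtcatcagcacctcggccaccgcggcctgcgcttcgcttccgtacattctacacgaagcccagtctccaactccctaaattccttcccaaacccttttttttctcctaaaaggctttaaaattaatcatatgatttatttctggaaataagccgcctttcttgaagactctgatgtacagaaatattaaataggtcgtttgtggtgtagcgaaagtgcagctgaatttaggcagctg
Ambra1: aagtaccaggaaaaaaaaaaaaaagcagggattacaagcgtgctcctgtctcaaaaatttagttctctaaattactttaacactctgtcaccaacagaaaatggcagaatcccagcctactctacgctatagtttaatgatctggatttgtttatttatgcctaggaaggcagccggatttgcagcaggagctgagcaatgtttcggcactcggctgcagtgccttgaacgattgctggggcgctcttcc
Atg13 and Ambra1 are read in opposite directions on chromosome 2, and 19045 bases lie between their windows. The Ulk1 and Ulk2 windows were rich in G and C (67.2% and 72.8%), the Atg13 and Ambra1 windows less so (46.4% and 44%), against a mean of 53.2% over 32851 windows. Motifs were searched on both strands. The GC box GGGGCGGGG, a binding site of Sp1-type factors, was found in the Ulk1 window and in 10.4% of all windows. The E2F motif TTTGGCGC was found in the Atg14 window and in 0.417% of all windows. None of the 7 member windows held the E-box CACGTG (6.02% of all windows), its extended form GTCACGTG (1.85%) that contains it and is known from lysosomal genes, the FoxO motif GTAAACA (3.17%), the ATF4 motif TGATGNAA (3.45%), the cAMP response element TGACGTCA (1.55%) or the interferon-stimulated element (GAAA, any 2 bases, GAAA; 2.98%). A match is a description of the letters, and the absence of a match says only that these letters are not in these windows.

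Transcripts of 9 of the 10 genes rose in starved fibroblasts, and the tenth, Becn1, did not pass the test. The rises ranged from 0.22 for Ulk2 to 1.23 for Rb1cc1 on the log2 scale, with a median over all 10 genes of 0.49 against −0.048 over all genes tested. Over all genes, 22.1% were called higher and 22.0% lower in starved cells, so a call in itself was common on these arrays. Levels are log2 array signals, a difference is the starved mean less the control mean of these with its SE, and a gene passed at an adjusted p below 0.05 over all 12393 genes. A gene was read from its brightest probe set unless another is named. In bulk samples such as these, fewer cells of a type and less RNA per cell cannot be told apart. In the 9 genes that rose every starved array lay above every control array, which was the case for 25.7% of all genes.

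**Figure D1:**
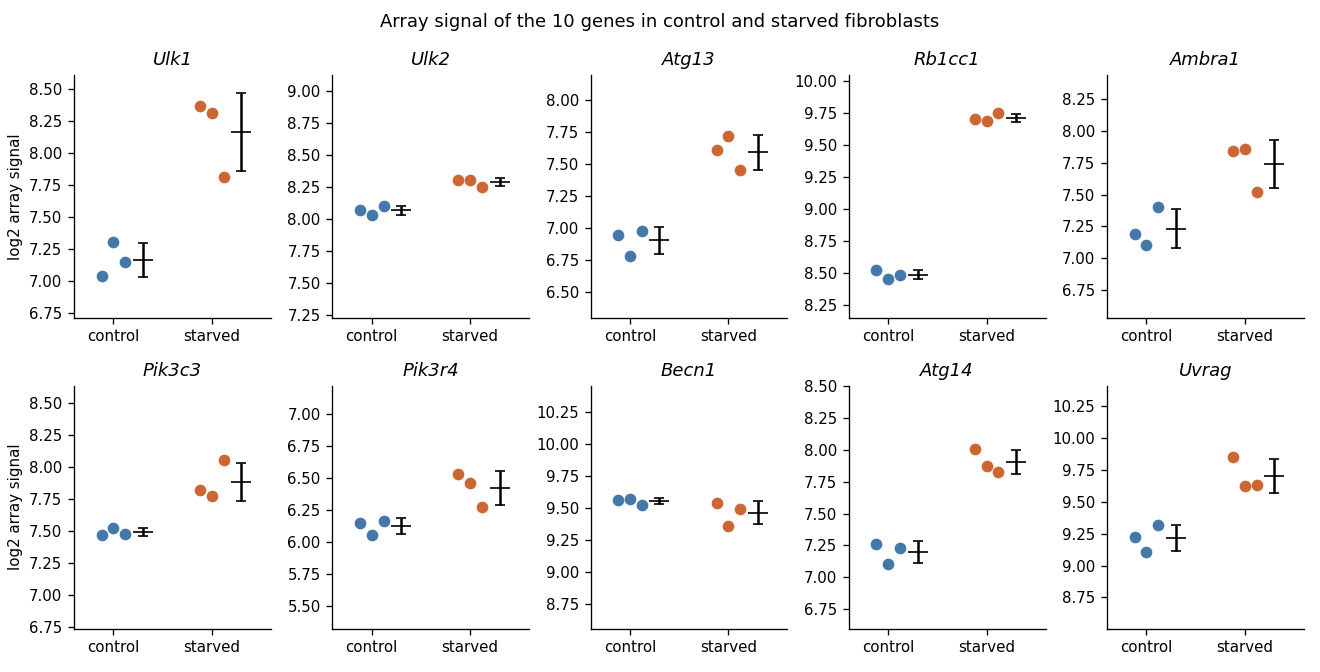
Log2 array signal of the 10 genes (brightest probe set) in the 3 control and 3 starved arrays, replicates 1 to 3 from left to right within a group, with the mean and SD beside them, and the same height of axis in every panel. The groups are apart in every panel except Becn1, and Rb1cc1 has the widest gap (1.17) between its lowest starved and highest control array.

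Rb1cc1, the scaffold of the ULK complex, had the largest difference of the 10 genes in brightest probe sets, though its own dimmer probe set rose less than either of Ulk1, and Rb1cc1 was not tested against Ulk1. It lay at 8.52, 8.45 and 8.48 in control replicates 1 to 3 and at 9.70, 9.69 and 9.74 in starved replicates 1 to 3. The arrays of each group lay close together, and the groups were far apart. The difference was 1.23 (SE 0.07, adjusted p = 6.13e-07), a 2.34-fold rise, and 160 genes on the arrays had a larger one. The dimmer Rb1cc1 probe set, made from the same transcript record, read 5.92, 6.13 and 5.91 in control and 6.37, 6.80 and 7.06 in starved arrays, and its smaller rise of 0.75 (SE 0.16) also passed (adjusted p = 0.00409 over all probe sets).

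Ulk1, the main kinase of the complex, doubled. It lay at 7.04, 7.30 and 7.15 in control and at 8.37, 8.31 and 7.81 in starved arrays. Starved replicate 3 was clearly the lowest of its group, yet it stood 0.51 above the highest control array. The difference was 1.00 (SE 0.14, adjusted p = 0.000242). The dimmer Ulk1 probe set showed the same order of starved arrays (7.02, 6.74 and 6.38, against 5.90, 5.87 and 5.88 in control) and rose by 0.83 (SE 0.14, adjusted p = 0.0012 over all probe sets).

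For Ulk2, the paralogous kinase, the answer depended on the probe set. The brightest lay at 8.07, 8.03 and 8.10 in control and at 8.31, 8.31 and 8.25 in starved arrays, a rise of 0.22 (SE 0.07, adjusted p = 0.021). Another, made from the same transcript record, read 7.48, 7.41 and 7.41 in control and 8.39, 8.11 and 8.10 in starved arrays, a rise of 0.76 (SE 0.09, adjusted p = 0.000168 over all probe sets). The dimmest differed by 0.18 (SE 0.09) and did not pass (adjusted p = 0.133 over all probe sets). In all 3 the starved arrays lay above the control arrays. Over all 18 probe sets of the members 14 had groups apart in this direction, against 24.5% of all probe sets. The call of the brightest probe set was lost without control replicate 1 (adjusted p = 0.064), control replicate 2 (adjusted p = 0.0804) or starved replicate 2 (adjusted p = 0.0532). Which part of the transcript each probe set reads was not analysed here.

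Atg13, the adaptor that links the kinases to the scaffold, lay at 6.95, 6.78 and 6.98 in control and at 7.61, 7.72 and 7.45 in starved arrays. The groups stood 0.47 apart, and the difference was 0.69 (SE 0.09, adjusted p = 0.000166). Its further probe set moved little, from 6.79, 6.91 and 6.82 to 7.04, 6.98 and 6.97, a difference of 0.15 that did not pass (adjusted p = 0.114 over all probe sets).

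**Figure D2:**
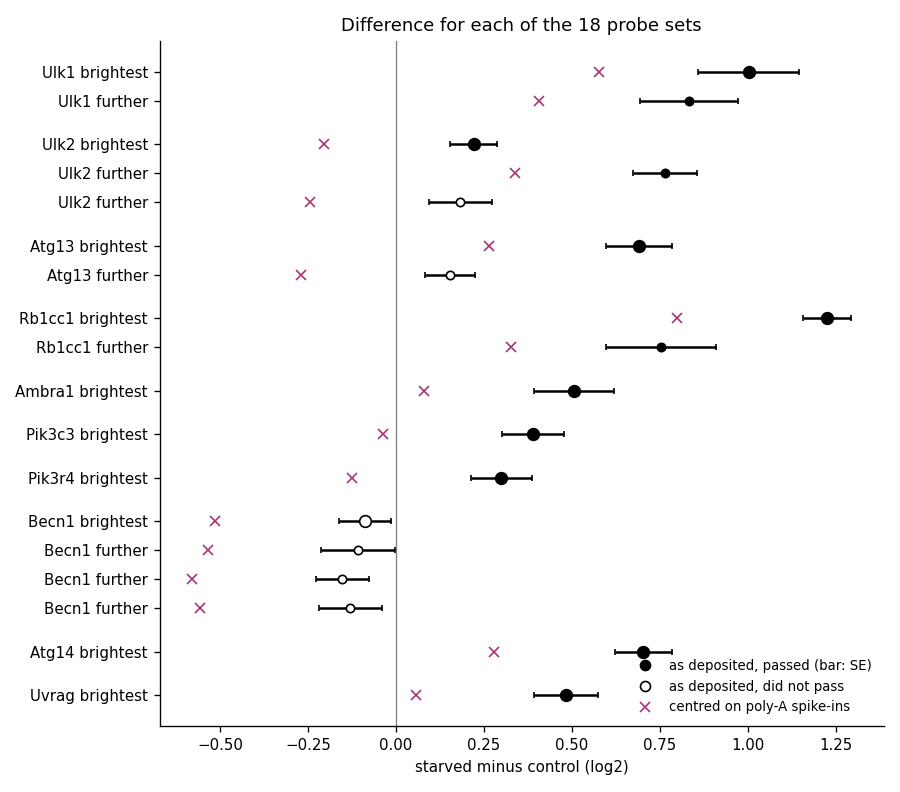
Difference of starved minus control (log2, circles with SE) for each of the 18 probe sets, with probe sets of a gene in order of brightness. Filled circles passed the test over all probe sets, and crosses give the difference after centring the arrays on the poly-A spike-ins. The 4 Becn1 probe sets are the circles left of 0, and the Ulk2 and Atg13 probe sets spread widely.

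In the VPS34 complex the kinase and its regulatory subunit rose 1.31-fold and 1.23-fold. Pik3c3, the catalytic subunit, lay at 7.47, 7.53 and 7.48 in control and at 7.82, 7.77 and 8.05 in starved arrays, and starved replicate 3 was its highest array. The difference was 0.39 (SE 0.08, adjusted p = 0.0041). Pik3r4, the regulatory subunit, lay at 6.15, 6.06 and 6.17 in control and at 6.53, 6.47 and 6.28 in starved arrays. Here starved replicate 3 was the lowest of its group, 0.11 above the highest control array. The difference of 0.30 (SE 0.08, adjusted p = 0.015) lost its call without control replicate 2 (0.27, adjusted p = 0.0599).

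Becn1, the scaffold subunit of the core, was the exception. It lay at 9.56, 9.57 and 9.53 in control and at 9.54, 9.36 and 9.49 in starved arrays, and the groups overlapped. The difference of −0.09 (SE 0.07, 95% CI −0.25 to 0.07) did not pass (adjusted p = 0.351). Its further probe sets gave −0.11, −0.15 and −0.13, and none passed (adjusted p from 0.136 to 0.44 over all probe sets). Those at −0.15 and −0.13 were dim (control means 4.70 and 3.99) and say little. In the one at −0.15 the starved arrays lay below the control arrays, with a gap of 0.014.

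The subunits that decide where the core acts both rose. Atg14, the autophagy-specific subunit, lay at 7.26, 7.10 and 7.23 in control and at 8.01, 7.87 and 7.82 in starved arrays, a difference of 0.70 (SE 0.08, adjusted p = 6.22e-05) or 1.63-fold. Uvrag, the alternative subunit, lay at 9.22, 9.11 and 9.32 in control and at 9.85, 9.62 and 9.63 in starved arrays, a difference of 0.48 (SE 0.09, adjusted p = 0.00147). In both genes the lowest starved array lay clear of the highest control array, by 0.56 in Atg14 and 0.30 in Uvrag. Ambra1, the Beclin 1 partner that also acts on ULK1, lay at 7.19, 7.10 and 7.40 in control and at 7.84, 7.85 and 7.52 in starved arrays. Its most extreme arrays, control replicate 3 and starved replicate 3, were 0.12 apart, and the difference was 0.51 (SE 0.11, adjusted p = 0.00412).

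Across all probe sets of the 10 genes, 12 of 18 rose, 0 fell and 6 did not pass, where 20.4% of all probe sets rose and 20.5% fell. Those that did not pass were the 4 of Becn1, the dimmest of Ulk2 and the dimmer of Atg13. Among the 5 genes with several probe sets, the change of a further probe set relative to the brightest was 0.54 for Ulk2, −0.54 for Atg13 and −0.47 for Rb1cc1, with groups that did not overlap. Each of these had an exact two-sided permutation p of 0.1, the smallest that 3 arrays against 3 allow, and 0.267 when adjusted over 8 such comparisons. This comparison was added after the values were seen.

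Starved replicate 3 was the lowest starved array for Ulk1, Ulk2, Atg13, Pik3r4, Atg14 and Ambra1 and the highest for Pik3c3 and Rb1cc1. Among only 3 arrays any array is often the lowest or highest, and the share over all genes was not counted. Without starved replicate 3 the difference of Ulk1 was 1.18 and that of Ambra1 0.61, while that of Pik3c3 was 0.30. All 9 rises kept their call without it.

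The size of the rises depended on how the arrays were scaled. The deposited values fix the overall distribution of each array, and the control probe sets for spike-in RNAs read higher in starved than in control arrays, by 0.43 for the poly-A and 0.19 for the hybridization spike-ins. After centring each array on the poly-A spike-ins, the median of all genes moved from −0.048 to −0.47, and 6.94% of genes were called higher and 75.2% lower. Under that centring Rb1cc1 (0.80), Ulk1 (0.58), Atg14 (0.28) and Atg13 (0.26) still rose, with adjusted p from 1.53e-06 to 0.0214. Uvrag (0.06), Ambra1 (0.08), Pik3c3 (−0.04), Pik3r4 (−0.13) and Ulk2 (−0.21) did not pass, and Becn1 fell (−0.51, adjusted p = 0.000253). This centring left the distances between probe sets of a gene as they were, but calls differed between them. Ulk2 lay at 0.34 (adjusted p = 0.0133 over all probe sets) in the probe set that had risen most. The dimmer Rb1cc1 probe set lay at 0.33 without passing (adjusted p = 0.0583). The further Atg13 probe set was called lower at −0.27 (adjusted p = 0.0244), although the brightest was called higher. With the hybridization spike-ins 6 of the 10 rose, Rb1cc1, Ulk1, Atg14 and Atg13 with Uvrag (0.30) and Ambra1 (0.32), and Becn1 fell (−0.28, adjusted p = 0.0213), where 13.5% of genes were higher and 49.2% lower. The poly-A set of 24 control probe sets leaves out the 3 for Trp. These were in the set at first and were taken out once the shift with them (0.37) had been seen, with the value from an earlier treatment of these data in view. With them included the same 4 members rose and Becn1 fell (−0.46), Pik3c3 lay at 0.014 instead of below 0, and 8.21% of genes were higher and 72.1% lower. Either centring moves all genes of an array together, and an error in it would too. When tested against a fold change of 1.2 instead of no change (limma's treat), Rb1cc1, Ulk1, Atg14 and Atg13 passed, where 10.6% of genes were higher and 7.58% lower.

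**Figure D3:**
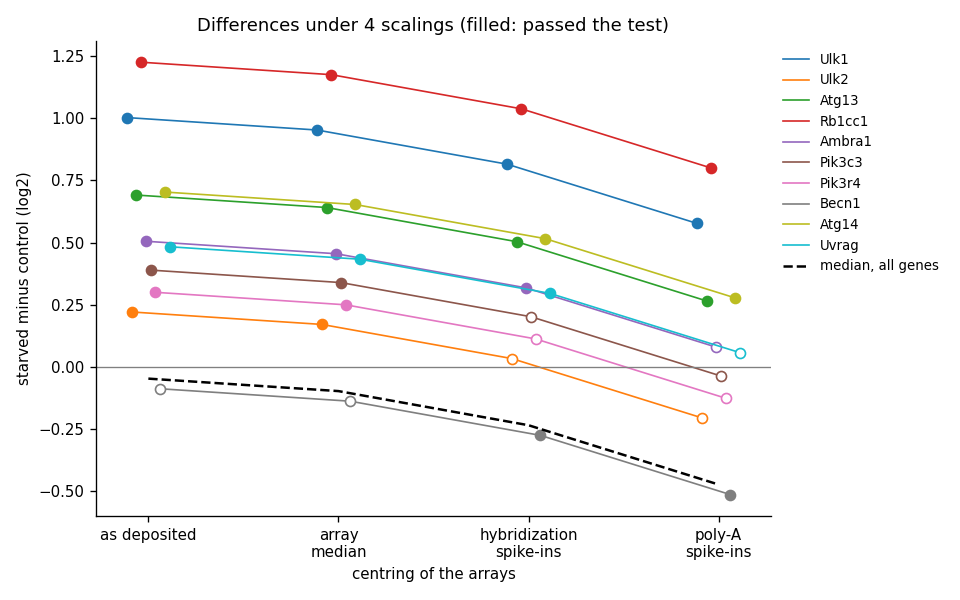
Difference of starved minus control (log2) of the 10 genes (brightest probe set) as deposited and after centring the arrays on their median, on the hybridization spike-ins or on the poly-A spike-ins. Filled circles passed the test and the dashed line is the median of all genes. Lines keep their distances at every scaling, and Rb1cc1, Ulk1, Atg14 and Atg13 stay filled throughout, with Becn1 close to the median of all genes.

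Differences between members within an array do not depend on how the array is centred, and 4 pairs were set against each other by role. Ulk1 gained 0.78 on Ulk2 (from −0.90 ± 0.16 to −0.12 ± 0.27, mean ± SD, n = 3), Rb1cc1 gained 0.53 on Atg13 (1.58 ± 0.09 to 2.11 ± 0.17), and Atg14 gained 0.22 on Uvrag (−2.02 ± 0.06 to −1.80 ± 0.05). In these 3 pairs the groups did not overlap, with an exact two-sided permutation p of 0.1 each, the smallest possible here, and 0.133 adjusted over the 4 pairs. Pik3c3 gained 0.09 on Pik3r4, with overlapping groups and an exact permutation p of 1. The Ulk1 and Rb1cc1 pairs also depended on the probe set. Over the 6 combinations of Ulk1 and Ulk2 probe sets the gain of Ulk1 ranged from 0.07 to 0.82, with groups apart in 4. Over the 4 combinations of Rb1cc1 and Atg13 it ranged from 0.06 to 1.07, with groups apart in 3.

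**Figure D4:**
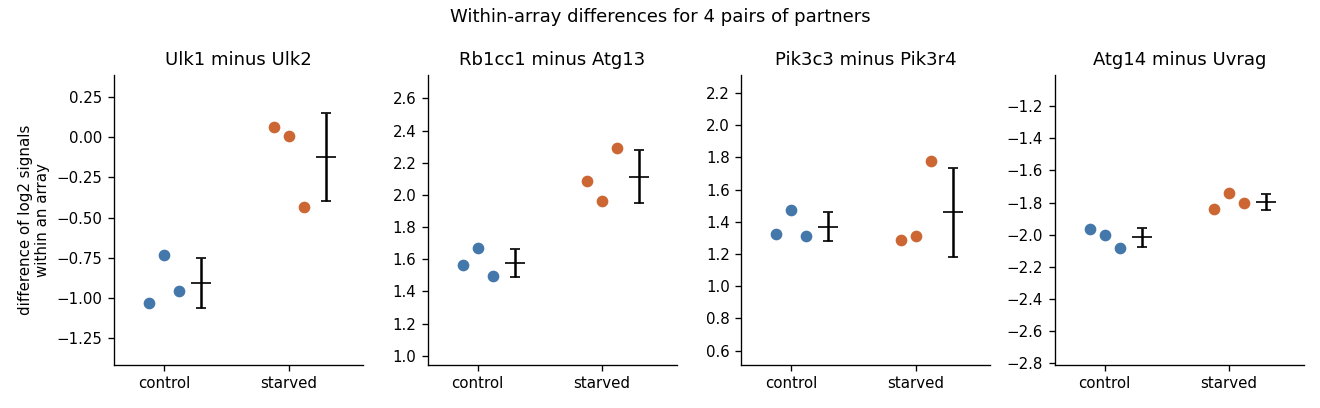
Within-array difference of log2 signals (brightest probe sets) for 4 pairs of partners in the 3 control and 3 starved arrays, with the mean and SD. The groups are apart for Ulk1 minus Ulk2, Rb1cc1 minus Atg13 and Atg14 minus Uvrag, and overlap for Pik3c3 minus Pik3r4, where starved replicate 3 lies highest.

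Counts in the other gene lists of the pathway are to be read against the 22.1% of all genes called higher and 22.0% called lower, from which no list was tested to differ. In the lists that follow, an unnamed member either passed without being among those with the smallest adjusted p or did not pass. Of 10 measured further subunits and close partners 5 rose, 2 fell and 3 did not pass (list median 0.10). Trp53inp1, a stress-induced autophagy protein, rose by 0.64 (adjusted p = 7.15e-05), and Vmp1, a lipid scramblase of the endoplasmic reticulum, by 0.58 (adjusted p = 0.000113). The rise of Vmp1 was lost with the mean of its probe sets (0.13, adjusted p = 0.206), and with poly-A centring, and that of Trp53inp1 with poly-A centring without the Trp probe sets. Atg101, the remaining subunit of the ULK complex, rose by 0.20 (from 7.84 ± 0.10 to 8.04 ± 0.02), but lay at −0.22 with poly-A centring and did not pass. Nrbf2, which binds the ATG14 form of the VPS34 complex, fell by 0.34 (from 9.27 ± 0.11 to 8.93 ± 0.05, adjusted p = 0.00457), and Tmem41b, another scramblase, by 0.41 in its brightest probe set, with all 5 of its probe sets called lower.

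Of 14 genes that bind or modify Beclin 1, 4 fell, 2 rose and 8 did not pass (list median −0.08), counts near the shares over all genes (22.0% lower and 22.1% higher). Usp10, a deubiquitinase of Beclin 1, fell by 0.71 (adjusted p = 6.61e-05) and Dynll1, a dynein light chain that binds AMBRA1, by 0.68 (adjusted p = 4.69e-05). The inhibitors of the BCL2 family were not uniform. Bcl2 (−0.68) and Mcl1 (−0.44) fell, Bcl2l1 lay at −0.09 and did not pass, and Bcl2l2 rose by 0.63 (adjusted p = 9.37e-05), which 1 of its 4 probe sets carried and poly-A centring without the Trp probe sets ended. Mapkapk2, a stress kinase that phosphorylates Beclin 1, rose by 0.67. Bcl2, Mcl1, Bcl2l1 and Atg101 were named after their values were seen.

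Upstream of ULK1, 6 of 16 measured kinases, phosphatases and ubiquitin enzymes rose and 1 fell, while 9 did not pass (list median 0.21). Ppm1d, a phosphatase that acts on ULK1, rose by 1.34 (from 6.05 ± 0.11 to 7.39 ± 0.15, adjusted p = 2.9e-06), more than any of the 10 members. Nedd4l, a ubiquitin ligase of ULK1, rose by 0.65 (adjusted p = 7.73e-05) in its brightest probe set, the only one of its 2 that was called, and by 0.30 with their mean (adjusted p = 0.00773). The gene that fell, Klhl20 (−0.32, adjusted p = 0.0279), an adaptor for ULK1 degradation, had overlapping groups and lost its call without control replicate 1, control replicate 2, starved replicate 1 or starved replicate 2, with the replicate block and with a further quantile normalization. Mtor itself (0.18) did not pass.

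Downstream of VPS34, 8 of 19 PI3P effectors and phosphatases rose, 2 fell and 9 did not pass (list median 0.23). Wipi1, which binds PI3P on forming autophagosomes, rose by 0.94 (adjusted p = 8.42e-06), called in 2 of its 5 probe sets, and Hgs, an endosomal PI3P-binding sorting protein, by 0.91 (adjusted p = 7.03e-06). The lipid phosphatases were not uniform. Mtmr4 (−0.55) and Fig4 (−0.50) fell, though Mtmr4 did not pass with the mean of its probe sets (−0.19, adjusted p = 0.231). Mtmr6 (0.48, adjusted p = 0.000941) and Mtmr14 (0.42, adjusted p = 0.000561) rose, but neither passed with poly-A centring without the Trp probe sets. Mtmr6 and Mtmr14 were named after their values were seen. Among 13 measured tethering and fusion genes 6 rose, 2 fell and 5 did not pass (list median 0.13). Vps16 rose by 0.52 and the autophagosomal SNARE Stx17 by 0.40, both lost with poly-A centring, while Vps18 (−0.34) and Vps33b (−0.42) fell.

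Of 7 measured PI3-kinase subunits of class I and class II 2 rose, 1 fell and 4 did not pass (list median −0.05), again near the shares over all genes (22.1% higher and 22.0% lower). Pik3ca rose by 0.54, a call lost with poly-A centring. Pik3r1, the main regulatory subunit of class I, fell by 0.84 (adjusted p = 3.8e-05) in its brightest probe set. All 3 of its probe sets were called lower, and their mean differed by −0.66. Pik3cd rose by 0.44 from a dim level (4.85 ± 0.06), but 1 of its 3 probe sets was called lower, and its call was lost with the mean of its probe sets and with either spike-in centring. The difference between the lists was not tested.

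With poly-A centring 75.2% of all genes were called lower and 6.94% higher, with a median of −0.47. Of the 14 Beclin 1 genes 12 fell and 1 rose (list median −0.51), and of the 7 other PI3-kinase subunits 5 fell and 0 rose (−0.47), near those shares. Of the 10 further subunits 5 fell and 1 rose (−0.32), of the 16 upstream enzymes 8 fell and 2 rose (−0.22), of the 19 PI3P genes 8 fell and 2 rose (−0.20), and of the 13 tethering and fusion genes 6 fell and 0 rose (−0.29), smaller shares of falls than over all genes, which were not tested. The 10 members had a median of 0.07 under the same centring, with 4 that rose and 1 that fell.

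**Figure D5:**
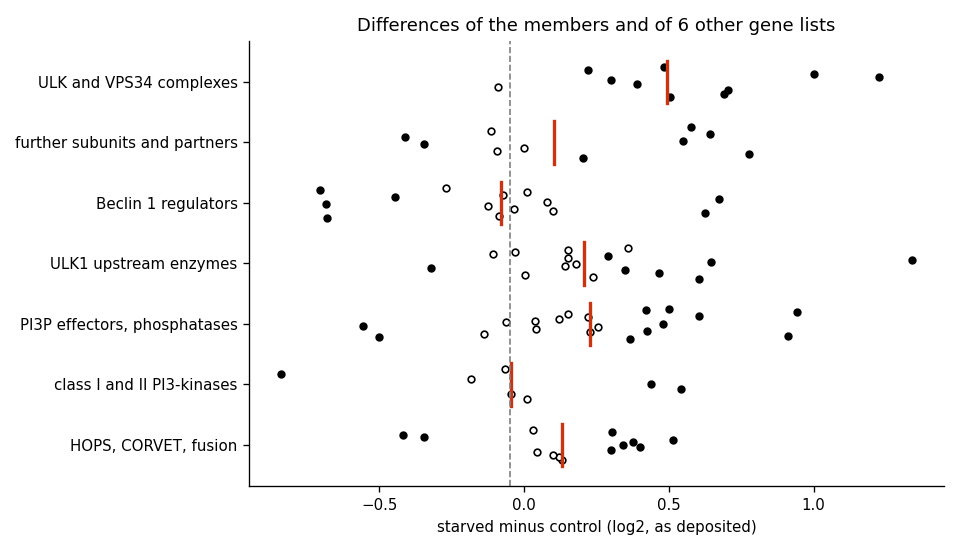
Difference of starved minus control (log2, as deposited) for each measured gene of the ULK and VPS34 complexes and of 6 other gene lists. Filled points passed the test, red bars are list medians and the dashed line is the median of all genes (−0.048). In the top row 9 of the 10 points are filled and lie right of 0, and each other row has filled points on both sides.

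The labelled cell type was checked against its markers. Most fibroblast markers were bright in control arrays, with Col1a2 at 14.03 ± 0.02, Vim at 13.93 ± 0.01, Col1a1 at 11.55 ± 0.10 and Pdgfra at 10.37 ± 0.08, whereas Ptprc of blood cells (3.16 ± 0.04), Pecam1 of endothelium (3.64 ± 0.06) and Epcam of epithelium (4.61 ± 0.18) were dim, where the lowest value on the arrays was 2.38. Several markers went against this order. Thy1 of fibroblasts was dim (4.99 ± 0.04) and Lum lay at 7.37 ± 0.18, while Cd14 (7.75 ± 0.05) and Csf1r (6.14 ± 0.13) of macrophages and Krt19 (6.40 ± 0.21) and Cldn3 (6.03 ± 0.03) of epithelium were brighter than Thy1. Fcer1g (5.22), Krt8 (5.19), Laptm5 (5.14), Cd68 (5.07) and Coro1a (5.04) also lay slightly above Thy1. The remaining measured markers of blood cells, epithelium and endothelium lay below it. These levels come from different probe sets, whose brightness is not a measure of transcript number between genes. The mean of 14 fibroblast markers was 11.24 to 11.33 in control and 11.60 to 11.64 in starved arrays, with 9 that rose, where 22.1% of all genes did,, among them Postn (1.41) and Col6a1 (0.87), and 2 that fell, Thy1 (−0.40) and Pdgfrb (−0.28). The call of Pdgfrb was lost with the mean of its probe sets and without control replicate 3. The mean of 12 macrophage and blood markers was 4.82 to 4.86 in control and 4.70 to 4.84 in starved arrays, with Cd68 higher (0.44) and Cd14 (−0.46) and Coro1a (−0.24) lower. The mean of 11 epithelial and endothelial markers was 4.38 to 4.44 and 4.32 to 4.39, with Cdh1 higher (0.91, from 3.44 ± 0.17) and Kdr (−0.27) and Pecam1 (−0.27) lower. Of these small changes, Cd68 lost its call with either spike-in centring, Kdr without control replicate 3, Coro1a without any single control array and without starved replicate 2 or 3, and Pecam1 without any single control array and without starved replicate 1 or 3. With poly-A centring 2 fibroblast markers rose and 6 fell (list median −0.10), 0 of the macrophage and blood markers rose and 11 fell, and 1 of the epithelial and endothelial markers rose and 10 fell, where 6.94% of all genes rose and 75.2% fell. The part of the fibroblast marker shift in the results above was not tested. Array medians lay between 6.73 and 6.81, and the number of arrays limits the precision.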

How the data were processed

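Gene expression was measured on short-oligonucleotide arrays with biotin-labelled RNA, 1 sample per array. The authors deposited 1 log2 value per probe set and array. They come from affy and RMA per the submitters' processing notes, with no version named there. RMA equalises the signal distribution of the arrays before any test and compresses differences of dim genes.

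Probe sets were named by the platform annotation. Of 22690 probe sets, 64 array controls, 691 with several genes and 1555 with none listed were left out. A gene took its brightest probe set over all arrays. Groups came from the sample titles, and limma 3.58.1 (R 4.3.3, lmFit and eBayes, no covariate, two-sided) was fitted to all 6 arrays with Benjamini-Hochberg adjustment over 12393 genes, and likewise over 20380 probe sets. Pairs of genes were set against each other by two-sided exact permutation (SciPy 1.17.1). The gene fit was tried on 10 simulated data sets in which 200 of 12393 genes were changed. It recovered 94.1% of changes of 0.5 and 100% of changes of 1, and 6.35% of calls were false. Far fewer genes were changed there than were called here, and no shift in scaling was simulated. By their mean over all 6 arrays, all 10 members lay above the dimmest 40% of genes, a limit of 6.15. The control mean of Pik3r4 (6.13) was below this limit, and its starved mean (6.43) was above it.

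The members and the gene lists were chosen with earlier results of these data known, and so was the set of poly-A spike-in probe sets. Of 142 genes in the 9 other lists, 116 were measured. All members are named, as are up to 2 risen and 2 fallen genes of each other list with the smallest adjusted p and a few fixed markers. Some genes are named outside this rule, among them Mtor, those said above to be named after their values were seen, and further cell type markers. No block was used, since nothing in the labels says that same-numbered arrays pair cultures. Same-numbered arrays of the 2 groups also did not deviate together (correlations across genes of −0.0046, −0.022 and 0.0021). Promoter windows are from RefSeq (GRCm38.p6), and those of Rb1cc1, Becn1 and Pik3c3 were not used here. Plots were drawn with matplotlib 3.10.9 from tables made with Python 3.11.15 and pandas 2.3.3.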

Additional observations from a re-analysis of the deposited data

How the results depend on the processing

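The 10 genes were refitted under 18 alternatives, which gave 179 values, since Pik3r4 has no probe set left without those that can bind several transcripts. Of these, 152 kept their direction and their side of the threshold. Rb1cc1, Ulk1, Atg14 and Atg13 kept their calls under all 18. The mean of the probe sets was used only with the deposited values, and every other alternative read the brightest probe set. Whether the calls last under centring when read from that mean was not tested. Not every probe set of these genes kept the call. The further Atg13 probe set did not pass as deposited (0.15) and was called lower with poly-A centring (−0.27, adjusted p = 0.0244 over all probe sets). The dimmer Rb1cc1 probe set did not pass with poly-A centring (0.33, adjusted p = 0.0583). Centring on the poly-A spike-ins took the number of risen members from 9 to 4 and of fallen members from 0 to 1 (Becn1), with 10181 genes called in all, and turned Ulk2 (−0.21), Pik3c3 (−0.037) and Pik3r4 (−0.13). The 3 Trp probe sets were in the poly-A set at first and were taken out after the shift with them was seen. The same centring with them gave 4 risen members, 1 fallen and 9956 called genes, with Ulk2 at −0.15 and Pik3r4 at −0.075. Centring on the hybridization spike-ins left 6 risen members and 1 fallen. Against a fold change of 1.2 (limma's treat) 2253 genes, 4 members and 7 of the 18 member probe sets were called. These changes follow from subtracting a shift from every gene or from the stricter test. At an adjusted p below 0.01 Ulk2 and Pik3r4 lost their calls.

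Leaving out each array in turn gave 7 to 9 risen and 0 fallen members, 10 to 12 called member probe sets and 4541 to 5317 called genes. The same settings gave a gain of 0.69 to 0.94 for Ulk1 on Ulk2, 0.45 to 0.61 for Rb1cc1 on Atg13, 0.19 to 0.25 for Atg14 on Uvrag and −0.070 to 0.17 for Pik3c3 on Pik3r4, whose sign turned without starved replicate 3 (−0.070). With the replicate number as a block 9 members and 11 member probe sets were called, and 5274 genes. The replicate block changed no call of a member. With 3 arrays per group and signals rather than counts, no read depth applies, and 3 against 3 limits the exact tests to a p of 0.1.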
